A study of Mus musculus with 6 samples.

Results

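The 9 genes described here encode the signalling chains of the B cell antigen receptor (Cd79a and Cd79b), membrane proteins that act beside the receptor (Ms4a1, Cr2, Fcer2a, Cd22 and Cd72) and its intracellular adaptor and kinase (Blnk and Btk). They were taken by gene symbol from the deposited tables, which hold 54532 genes, and all 9 were found and passed the filter on low counts that left 15138 genes for testing. Poly(A)-selected RNA came from splenic CD4+ T cells of wild-type C57BL/6J mice, all made colitic with dextran sulfate sodium (DSS), given in drinking water. Daily Akkermansia muciniphila, a mucin-degrading gut bacterium, was given to the mice of 3 libraries (called Akkermansia 1, 2 and 3), and phosphate-buffered saline (PBS) to those of the other 3 (PBS 1, 2 and 3). The sources used here give neither the age of the mice nor the method of cell isolation. In both groups the free-text description names CD4 for library 1, CD5 for library 2 and CD6 for library 3, although every cell type entry names CD4. The libraries held 15032257 to 16677923 counts.

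On B cells, membrane immunoglobulin binds antigen but has almost no cytoplasmic tail, so the signal is passed on by the Ig alpha and Ig beta chains, whose tyrosine motifs (ITAMs) are phosphorylated by Lyn and then bind the kinase Syk. Syk phosphorylates the adaptor BLNK, which brings Btk to phospholipase C gamma 2 and so starts calcium release. CD21 lowers the threshold for this signal when antigen carries complement fragments, whereas CD22 and CD72 raise it through inhibitory tyrosine motifs (ITIMs) that recruit the phosphatase SHP-1. Mature T cells use CD3 chains in place of Ig alpha and Ig beta, and in spleen these 9 genes are known chiefly as B cell genes, although myeloid cells also express Btk, Blnk and Cd72 and follicular dendritic cells also carry CD21 and CD23.

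The sequences before the transcription starts are shown as a description, and any link to the difference between the groups was not tested. RefSeq promoter sequences (build GRCm38.p6, older than the GRCm39 build of the deposited tables) were at hand for 7 of the 9 genes, with 9 start sites in all; Cd79b and Ms4a1 were not among them. The 250 bases before each start were searched on both strands for 4 short motifs named for factors of the B lineage or of blood cells: the octamer ATGCAAAT of Oct factors, the EBF1 core CCCNNGGG, the PU.1 core GAGGAA and the E-box CAGGTG bound by E proteins. The 4 windows below stand for the signalling chain, the complement receptor, the inhibitory lectin and the adaptor; capitals mark the matches on either strand.
Cd79a, chr7:24897247-24897496, plus strand: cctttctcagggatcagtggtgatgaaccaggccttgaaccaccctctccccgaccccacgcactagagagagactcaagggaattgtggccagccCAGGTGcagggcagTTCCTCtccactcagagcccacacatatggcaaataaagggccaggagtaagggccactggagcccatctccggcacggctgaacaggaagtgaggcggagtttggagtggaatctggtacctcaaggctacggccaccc
Cr2, chr1:195176720-195176969, minus strand: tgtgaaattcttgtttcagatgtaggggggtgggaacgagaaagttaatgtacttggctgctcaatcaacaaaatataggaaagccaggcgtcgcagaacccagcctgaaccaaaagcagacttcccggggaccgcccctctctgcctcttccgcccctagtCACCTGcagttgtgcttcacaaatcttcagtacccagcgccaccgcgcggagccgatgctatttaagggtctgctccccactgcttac
Cd22, chr7:30879029-30879278, minus strand: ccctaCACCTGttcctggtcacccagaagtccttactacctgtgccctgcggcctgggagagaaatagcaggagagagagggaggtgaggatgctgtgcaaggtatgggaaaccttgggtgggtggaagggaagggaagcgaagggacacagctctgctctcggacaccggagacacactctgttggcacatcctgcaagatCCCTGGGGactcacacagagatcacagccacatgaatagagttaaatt
Blnk, chr19:40994222-40994471, minus strand: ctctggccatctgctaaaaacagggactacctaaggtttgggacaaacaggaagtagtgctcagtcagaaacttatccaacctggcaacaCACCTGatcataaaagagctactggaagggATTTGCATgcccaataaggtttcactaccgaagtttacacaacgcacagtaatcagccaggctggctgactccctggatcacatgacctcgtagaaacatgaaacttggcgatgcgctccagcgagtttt
The octamer was found in the Blnk window alone, 130 bases before the start, and in 1.6% of 32851 windows of this length over all genes. An EBF1 core match lay 48 bases before the start of Cd22 (11.8% of all windows). PU.1 core matches were in the Cd79a and Cd72 windows, 140 and 47 bases before the start (23.3% of all windows). E-box matches lay before Cd79a, Cr2, Cd22, Blnk and the second of 3 Fcer2a starts (17.2% of all windows), and the Btk window and the other two Fcer2a windows held none of the 4 motifs. None of these motifs overlapped another in these windows. A match is a stretch of letters and not a measured binding site.

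All 9 genes were higher with Akkermansia. Each passed edgeR's quasi-likelihood test at an adjusted p of 0.05, where 15.6% of all tested genes were called and 7.32% were called higher. In each the 3 Akkermansia libraries lay above the 3 PBS libraries, as in 17.1% of all tested genes; 34.9% had groups that did not overlap in either direction. The increase was called and reached 2-fold in 7 of the 9, while 1.08% of all tested genes were both called higher and at least 2-fold up, and the median log2 fold change was 1.12, against -0.01 over all tested genes. Fcer2a and Cr2 had the largest increases, 3.14-fold and 3.13-fold, and Cd72 the smallest, 1.44-fold. In RNA from bulk samples, more cells of a type and more RNA per cell cannot be told apart.

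**Figure D1:**
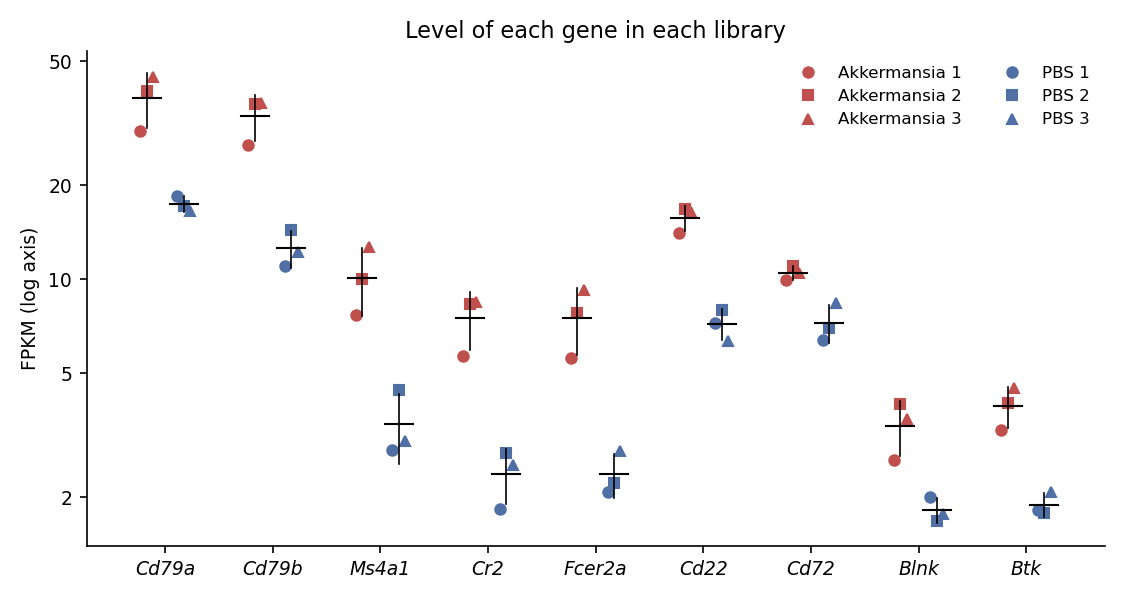
Level of each of the 9 genes in each of the 6 libraries, in FPKM (counts scaled for gene length and library size) on a log axis, with Akkermansia libraries in red left of PBS libraries in blue; horizontal lines are group means and vertical lines 1 SD (n = 3). For each gene all 3 red points lie above all 3 blue points, and the gap is narrowest for Cd72.

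The signalling chains were the most abundant of the 9 per gene length. Cd79a, which encodes Ig alpha, had 29.76, 40.09 and 44.50 FPKM in the Akkermansia libraries, against 18.52, 17.09 and 16.56 FPKM in the PBS libraries. The PBS values lay close together, and the lowest Akkermansia value was well above them. The log2 fold change of Cd79a was 1.12 ± 0.13 (SE, edgeR adjusted p = 0.000322). Cd79b, the gene of its partner chain Ig beta, had 26.95, 36.39 and 36.79 FPKM with Akkermansia, against 11.01, 14.41 and 12.23 FPKM with PBS. Akkermansia 1 was the lowest of its group for both chains, and neither gene's groups overlapped. Cd79b rose by 1.40 ± 0.14 (log2, SE, edgeR adjusted p = 7.66e-05). The 2 chains form a dimer, and the FPKM ratio of Cd79a to Cd79b was 1.104, 1.102 and 1.21 with Akkermansia, against 1.682, 1.186 and 1.354 with PBS. These ratios overlapped between the groups (exact permutation test, two-sided p = 0.2).

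Ms4a1, Cr2 and Fcer2a, which mark mature B cells, had the largest fold changes of the 9. Ms4a1 encodes CD20, a membrane protein linked to B cell calcium entry, and had 7.68, 10.03 and 12.65 FPKM with Akkermansia, against 2.84, 4.41 and 3.02 FPKM with PBS. It was the most variable of the 9 in each group, with a coefficient of variation in CPM (counts scaled to library size) of 24.1% with Akkermansia and 24.3% with PBS. Its log2 fold change was 1.56 ± 0.24 (SE, edgeR adjusted p = 0.00794). Cr2, whose product CD21 binds complement C3 fragments, had 5.68, 8.35 and 8.45 FPKM with Akkermansia, against 1.84, 2.77 and 2.53 FPKM with PBS. Libraries Akkermansia 2 and 3 were alike, and library 1 was the lowest in both groups. Cr2 rose by 1.65 ± 0.19 (log2, SE, edgeR adjusted p = 0.00156). Fcer2a encodes CD23, the low-affinity IgE receptor that follicular B cells carry, and had 5.59, 7.76 and 9.20 FPKM with Akkermansia, against 2.08, 2.22 and 2.81 FPKM with PBS. Its groups lay well apart, with Akkermansia 1 nearest to the PBS libraries. The log2 fold change of Fcer2a was 1.65 ± 0.19 (SE, edgeR adjusted p = 0.000231), and only 66 of the 15138 tested genes had a larger one.

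The inhibitory lectins Cd22 and Cd72 both rose, Cd22 by 2.17-fold and Cd72 by 1.44-fold. Cd22, a sialic acid-binding lectin with ITIMs, had 14.10, 16.76 and 16.35 FPKM with Akkermansia, against 7.26, 7.97 and 6.34 FPKM with PBS. It had the most counts of the 9 genes, 526 to 1267 per library, and values within each group lay close together. Cd22 rose by 1.12 ± 0.10 (log2, SE, edgeR adjusted p = 3.66e-05). Cd72, a C-type lectin-like receptor with an ITIM, had 9.94, 11.03 and 10.48 FPKM with Akkermansia, against 6.38, 6.99 and 8.36 FPKM with PBS. The groups did not overlap, but PBS 3 came close to Akkermansia 1. Its log2 fold change was 0.52 ± 0.11 (SE, edgeR adjusted p = 0.0081), and 1246 tested genes had a larger one. The FPKM ratio of Cd72 to Cd22 was 0.705, 0.658 and 0.641 with Akkermansia, against 0.879, 0.877 and 1.32 with PBS; the groups did not overlap (exact permutation test, two-sided p = 0.1, the smallest that 3 against 3 allows). Exons of Cd72 overlap those of Tesk1, a kinase gene on the opposite strand, in GENCODE M21, and Tesk1 also rose, by 0.50 ± 0.13 (log2, SE, edgeR adjusted p = 0.0225). The sources used here do not give the strand setting of the counting, so reads of the 2 genes cannot be told apart where they overlap.

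The intracellular genes had the lowest levels per gene length. Blnk, the adaptor that joins Syk to Btk, had 2.63, 3.97 and 3.57 FPKM with Akkermansia, against 2.0, 1.68 and 1.77 FPKM with PBS. Akkermansia 1 stood nearest to the PBS libraries, without overlap. Blnk rose by 0.89 ± 0.16 (log2, SE, edgeR adjusted p = 0.00311). Btk, the kinase that BLNK brings to phospholipase C gamma 2, had 3.29, 4.02 and 4.47 FPKM with Akkermansia, against 1.82, 1.78 and 2.08 FPKM with PBS. It had the fewest counts of the 9, 85 to 211 per library, and still its groups lay apart. The log2 fold change of Btk was 1.04 ± 0.17 (SE, edgeR adjusted p = 0.00185).

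The order of levels was nearly the same in the 2 groups. With Akkermansia, Cd79a and Cd79b averaged 38.1 ± 7.57 and 33.4 ± 5.57 FPKM (SD, n = 3). Their ranges overlapped, but Cd79a was the higher in each of the 3 libraries. Cd22 followed at 15.7 ± 1.43 FPKM. Cd72, Ms4a1, Fcer2a and Cr2 came next, between 10.5 ± 0.545 and 7.49 ± 1.57 FPKM, each overlapping its neighbour. Btk and Blnk came last at 3.93 ± 0.596 and 3.39 ± 0.688 FPKM. Within single libraries, Ms4a1 was above Fcer2a, and Btk above Blnk, in all 3. With PBS, Cd79a at 17.4 ± 1.01 FPKM was above Cd79b at 12.55 ± 1.72 FPKM without overlap, and Cd72 and Cd22 shared the third place at 7.24 ± 1.01 and 7.19 ± 0.817 FPKM (SD, n = 3). Ms4a1 followed at 3.42 ± 0.859 FPKM, and Cr2, Fcer2a, Btk and Blnk, from 2.38 ± 0.483 down to 1.82 ± 0.165 FPKM, each overlapped its neighbour. Even so, Fcer2a was above Btk in all 3 PBS libraries. Cd72 was below Cd22 in all 3 Akkermansia libraries and above it in 1 PBS library, PBS 3 (8.36 against 6.34 FPKM).

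Summed over the 9 genes, the level was 105.6, 138.4 and 146.5 FPKM with Akkermansia, against 53.75, 59.32 and 55.7 FPKM with PBS. Akkermansia 1 was the lowest of its group for 9 of 9 genes. Over all genes called higher it was the lowest in 41.7%. Without Akkermansia 1 the log2 fold changes of the 9 genes were between 0.56 for Cd72 and 1.83 for Fcer2a, and all 9 remained called by edgeR (largest adjusted p = 0.0217). The coefficient of variation of CPM within a group had a median of 19.5% over the 9 genes with Akkermansia and 12.9% with PBS. It was above the counting error for 9 genes with Akkermansia and for 8 with PBS, the exception being Btk.

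As a share of the summed FPKM of the 9 genes, Cd72 made up 9.41%, 7.97% and 7.16% with Akkermansia, against 11.87%, 11.78% and 15.01% with PBS, the only share whose Akkermansia values all lay below the PBS values. Shares of Cd79b (25.6% ± 0.597 with Akkermansia, 22.2% ± 1.92 with PBS), Cr2 (5.73% ± 0.330 and 4.21% ± 0.686) and Fcer2a (5.73% ± 0.505 and 4.22% ± 0.718; SD, n = 3) were higher with Akkermansia without overlap. For these 4 genes the two-sided exact permutation p was 0.1 (0.225 after adjustment over the 9 genes), the smallest that 3 against 3 allows, so no share could pass 0.05 in this design. The shares of Cd79a, Ms4a1, Cd22, Blnk and Btk overlapped between the groups (exact permutation p from 0.2 to 0.6).

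**Figure D2:**
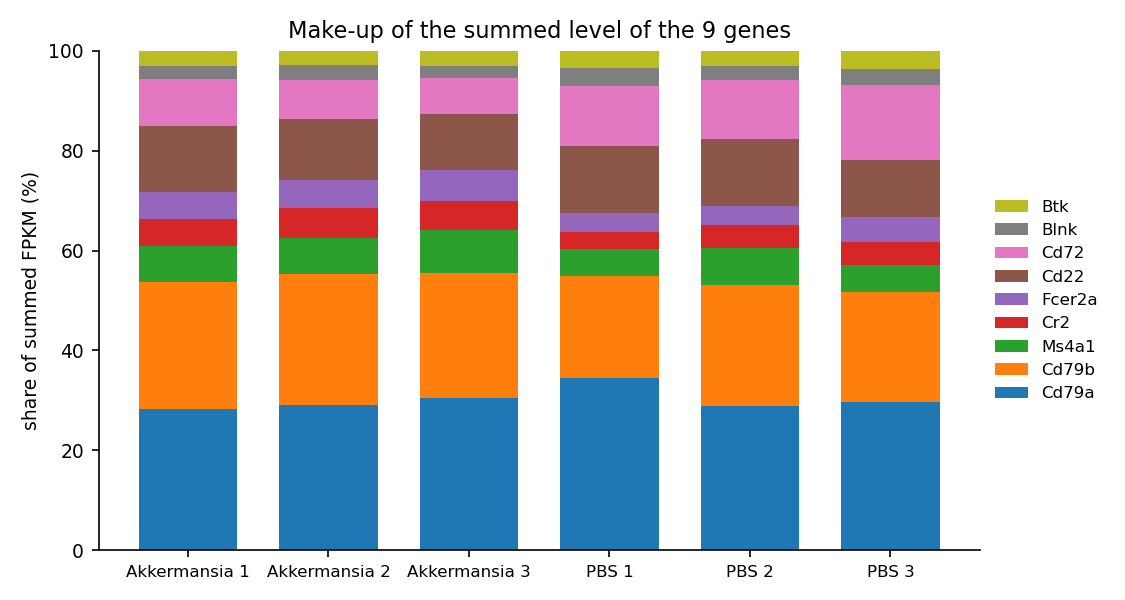
Share of each of the 9 genes in their summed FPKM, in percent, for the 3 Akkermansia and the 3 PBS libraries; each stacked bar is 1 library. The pink Cd72 segment is 7.16% to 9.41% in the Akkermansia bars and 11.78% to 15.01% in the PBS bars.

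Other genes of the receptor pathway moved less uniformly than the 9. Of 57 further pathway genes, all tested, 24 rose and 2 fell (edgeR adjusted p under 0.05; 7.32% of all tested genes were called higher and 8.28% lower), with a median log2 fold change of 0.25. The number that rose was 14 without Akkermansia 2 and 15 without Akkermansia 3, and the number that fell was 5 without PBS 2. Among 7 further coreceptors 4 rose. Fcmr, an IgM receptor, and Cd40, the receptor for T cell help, rose by 1.18 ± 0.19 and 1.45 ± 0.27 (log2, SE, edgeR adjusted p = 0.00244 and 0.00363), and Cd38 by 0.38 ± 0.11 (adjusted p = 0.0325). Cd81, a tetraspanin of the CD21 complex that T cells also express, had 34.2 CPM with Akkermansia and 33.6 CPM with PBS (log2 fold change 0.02 ± 0.10, edgeR adjusted p = 0.907).

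Of 8 kinase genes 3 rose. Blk, a Src family kinase of B cells, rose by 1.13 ± 0.15 (log2, SE, edgeR adjusted p = 0.000381) and Syk, which reads phosphorylated ITAMs, by 0.81 ± 0.09 (adjusted p = 0.000114). Csk, which restrains Src kinases in many cells, rose by 0.29 ± 0.07. Lyn, the kinase that starts the receptor signal and that myeloid cells share, had 38.8 CPM with Akkermansia and 32.0 CPM with PBS and did not pass (log2 fold change 0.28 ± 0.13, edgeR adjusted p = 0.151). Of 14 adaptor genes 4 rose: Bank1, a B cell scaffold, by 1.03 ± 0.14, Pik3ap1, the PI3 kinase adaptor BCAP, by 0.66 ± 0.14, Themis2 by 0.59 ± 0.15 and Grap, a Grb2 relative, by 0.31 ± 0.08. Of 14 effector genes 7 rose and 1 fell. Rasgrp3, a Ras activator, and Plcg2, the phospholipase that Btk activates, rose by 1.15 ± 0.24 and 0.97 ± 0.13, and Prkcb, the protein kinase C of this pathway, by 0.48 ± 0.08. Bcl10, an adaptor that B and T cells both use towards NF-kB, fell to 70.0 ± 2.51 CPM with Akkermansia, against 95.7 ± 8.94 CPM with PBS (SD, n = 3, edgeR adjusted p = 0.00287).

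Inhibitors of the receptor rose in 6 of 14 cases and fell in 1. Siglecg, a lectin related to CD22, rose by 1.26 ± 0.19 (log2, SE, edgeR adjusted p = 0.00154) and Ptpn6, the SHP-1 phosphatase that CD22 and CD72 recruit and that T cells also express, by 0.68 ± 0.07 (adjusted p = 6.05e-05). Dok3, an inhibitory adaptor, rose by 0.58 ± 0.13, and Fcgr2b, the inhibitory Fc receptor, by 0.87 ± 0.21. Cblb, a ubiquitin ligase of T and B cells, fell to 175 ± 7.17 CPM with Akkermansia, against 235 ± 20.5 CPM with PBS (SD, n = 3, edgeR adjusted p = 0.00326). Activating and inhibitory genes of the receptor were both among those that rose.

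**Figure D3:**
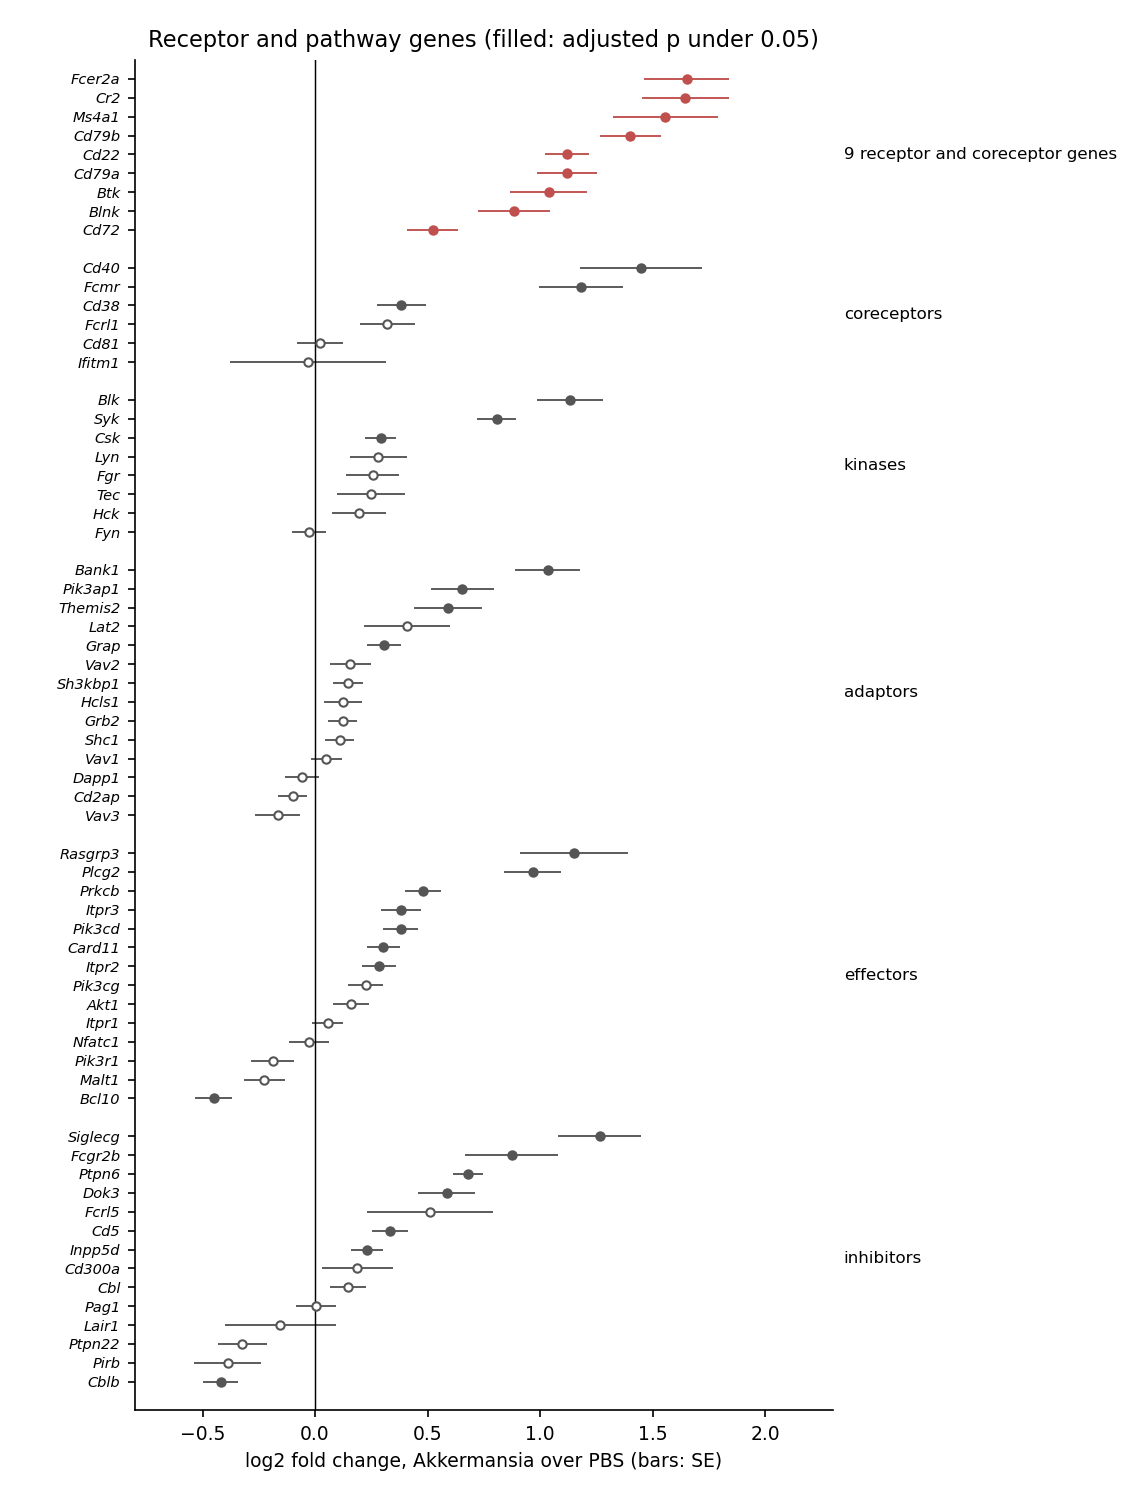
Log2 fold change, Akkermansia over PBS, of the 9 genes (red) and of the further receptor pathway genes (grey; 1 of the 57 is not drawn), grouped by role and sorted within each group; bars are standard errors and filled points passed an edgeR adjusted p of 0.05. All 9 red points are filled and right of 0, whereas many grey points are open and 2 filled ones lie left of 0 (Bcl10 and Cblb).

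The defining genes of the labelled cell type were more abundant per gene length than the 9. Cd3e, a CD3 chain, had 81.4 ± 1.10 FPKM with Akkermansia and 68.6 ± 4.47 FPKM with PBS, and Cd4 had 219 ± 8.01 FPKM with Akkermansia and 170 ± 9.13 FPKM with PBS (SD, n = 3). The lowest of 12 T cell genes were Cd28 with Akkermansia (53.1 ± 5.44 FPKM) and Cd247 with PBS (55.1 ± 4.38 FPKM), above the 38.1 and 17.4 FPKM of Cd79a. Of these 12 genes 5 rose, Cd3e and Cd4 among them, and 1 fell, Cd28. The summed FPKM of the 9 genes relative to that of the 12 T cell genes was 0.0474, 0.0628 and 0.0647 with Akkermansia, against 0.0253, 0.0286 and 0.0272 with PBS, a ratio of group means of 2.16 (exact permutation test, two-sided p = 0.1, the smallest that 3 against 3 allows). The groups thus did not overlap when the 9 genes were counted against T cell transcripts of the same library.

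Markers of several other cell types were higher in the same libraries, and their part in the result was not tested. Of 18 other B cell genes, 10 rose and none fell, among them Spib and Pax5, transcription factors of the B lineage, by 1.63 ± 0.12 and 1.25 ± 0.11 (log2, SE, edgeR adjusted p = 1.48e-05 and 3.27e-05). Their summed level was 2060 to 2120 CPM with Akkermansia and 1570 to 1780 CPM with PBS. The largest parts of that sum were Ighm (785 CPM with Akkermansia, 660 CPM with PBS), Igkc (357 and 216 CPM) and Cd37 (290 and 259 CPM). Of these only Ighm passed, so the sum weighs little on genes such as Spib and Pax5. Of 12 macrophage and monocyte genes 2 rose, Lyz2 by 1.11 ± 0.12 and Itgam by 0.95 ± 0.25, with sums of 589 to 635 CPM with Akkermansia and 481 to 569 CPM with PBS, while Csf1r, the receptor that defines these cells, did not pass (0.25 ± 0.09, edgeR adjusted p = 0.0748). Conventional dendritic cell genes rose in 2 of 7 tested, Itgax by 1.18 ± 0.16 and Zbtb46 by 1.24 ± 0.38 (log2, SE, edgeR adjusted p = 0.000578 and 0.0442). The 7 genes summed to 33.4 to 38.3 CPM with Akkermansia and 16.6 to 22.8 CPM with PBS. Plasmacytoid dendritic cell genes rose in 3 of 7 tested. These were Siglech, by 1.52 ± 0.45 (log2, SE, edgeR adjusted p = 0.0383), and Ly6d and Tcf4, which B cells also express. Siglech had 2.77 CPM with Akkermansia and 0.965 CPM with PBS. The 7 genes summed to 147 to 179 CPM with Akkermansia and 91.3 to 161 CPM with PBS. Both CD8 T cell genes rose (sums 61.3 to 93.4 CPM with Akkermansia, 19.1 to 20.2 CPM with PBS), as did 4 of 8 natural killer (NK) cell genes (83.7 to 102 CPM with Akkermansia, 57.9 to 72.3 CPM with PBS). For follicular dendritic cells, which carry CD21 and CD23, the defining chemokine Cxcl13 was counted 0, 0 and 1 times in the Akkermansia libraries, against 2, 0 and 0 times in the PBS libraries, Madcam1 was at 0 in all 6 libraries, and none of the 3 tested genes of that list passed. Neutrophil genes, which had 1 rise in 6 tested, summed to 72.7 to 163 CPM with Akkermansia and 13.3 to 55.4 CPM with PBS. The 1 that rose, Camp, did so by 11.0-fold (edgeR adjusted p = 0.00167), the largest increase of all tested genes. Cd8a, of the CD8 T cell genes, and Ncr1, of the NK cell genes, rose by 4.69-fold and 4.67-fold, also more than any of the 9. Log2 fold changes were above 0 for 5 of the 6 neutrophil genes and 6 of the 8 NK cell genes.

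**Figure D4:**
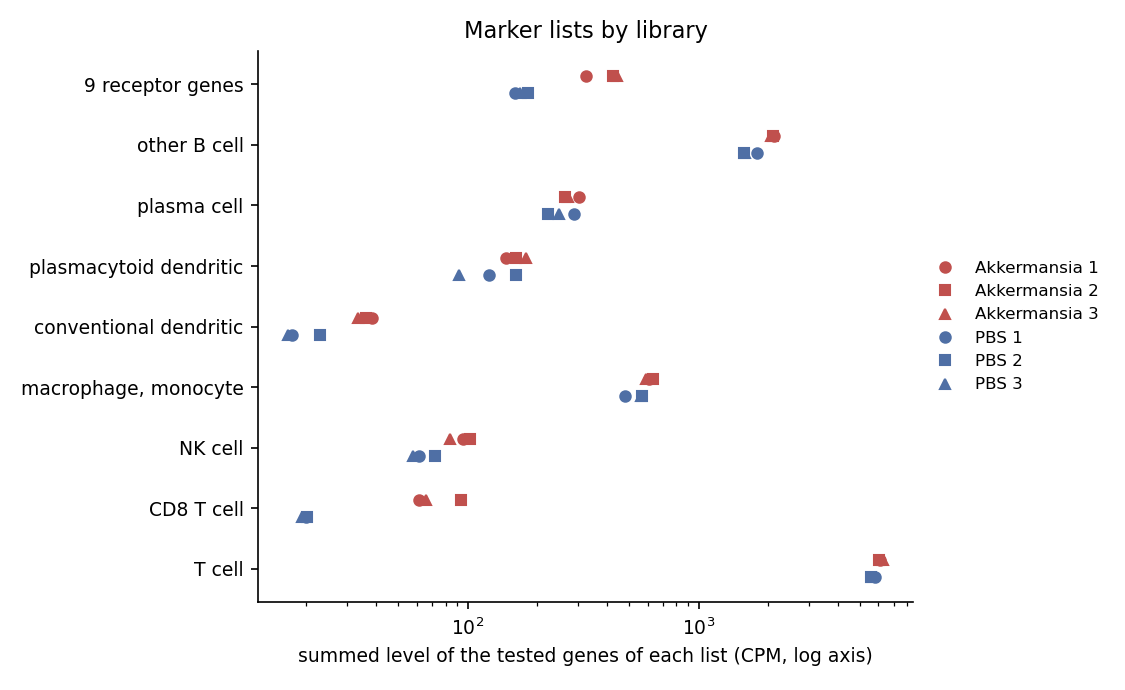
Summed level of the tested genes of each marker list in each library, in CPM on a log axis, with Akkermansia libraries in red above PBS libraries in blue. The 9 receptor genes sum to 325 to 444 CPM in Akkermansia libraries and 160 to 181 CPM in PBS libraries, while the T cell list sums to 6060 to 6280 CPM in Akkermansia libraries and 5570 to 5780 CPM in PBS libraries.

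Genes with a profile over the 6 libraries most like the mean of the 9 were ranked by Pearson's correlation of log2 CPM among 9532 genes with a mean of at least 5 CPM, predicted genes and antigen receptor segments left out. The 10 nearest included Lrrk2, Irf8, Cd74, Trp53, Mef2c, Syk, Tln1, Hexa and H2-Eb1, with r from 0.999 down to 0.993. The 6 points share libraries and depth, and the difference between the groups sets most of each correlation. Lrrk2, a large kinase, rose by 1.24 ± 0.14 (log2, SE, edgeR adjusted p = 0.000129) to 30.4 ± 5.28 CPM with Akkermansia, against 12.85 ± 0.827 CPM with PBS (SD, n = 3). Mef2c, a transcription factor that B cells need, had 25.35 ± 4.90 CPM with Akkermansia and 10.6 ± 0.250 CPM with PBS. Cd74 and H2-Eb1, of the MHC class II pathway, rose by 1.24 ± 0.12 and 1.00 ± 0.13. Trp53 and Tln1, which most cells express, were as close in profile but moved by 0.28 ± 0.06 and 0.46 ± 0.07, and Hexa did not pass (0.23 ± 0.08, edgeR adjusted p = 0.0632).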

How the data were processed

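RNA-seq libraries of 6 mouse samples, 3 per group by their treatment entry, were analysed. The deposited values are whole-number raw counts and, in a second table by the authors, FPKM with 2 decimals. The submitters' processing notes name GRCm39 as the build, while aligner, counter, annotation and strand setting are not stated in the labels or headers read. These counts were tested as deposited with edgeR 4.0.16 (R 4.3.3): filterByExpr (count of at least 10, total of at least 15) left 15138 of 54532 genes, scaling was by TMM, and the robust quasi-likelihood F test used p-values adjusted by Benjamini and Hochberg's method over the whole tested table, with a threshold of 0.05. Standard errors are the log2 fold change divided by the square root of F. CPM use TMM-scaled library sizes, where 3 counts equal 0.181 to 0.2 CPM. Shares and ratios used deposited FPKM and exact permutation tests over samples.

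The 9 genes and all lists were chosen with earlier results of these data known. All 9 genes are described; of other lists, up to 4 called genes by smallest p and defining markers are named, and other genes named were chosen after their values were seen. Some listed genes are not reported here by name. Of the listed symbols, Faim3 (the older name of Fcmr) and Fdcsp did not match. Alternatives were DESeq2 1.42.0, limma-voom and limma-trend on log2 FPKM (limma 3.58.1), other scalings and filters, each library left out in turn, and a replicate block. The test was checked on simulated counts, where it missed more of the smaller changes than of the larger ones. A gene that did not pass may therefore still differ between the groups. Replicate libraries differed by 4.45 to 19.8 times the sampling variance, so no library was a resequencing of another. The libraries are described as biological replicates; whether each is 1 mouse is not stated.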

Additional observations from a re-analysis of the deposited data

How the results depend on the processing

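All 9 genes remained higher and past the threshold under each of 15 alternatives, including every fit without 1 library. The largest adjusted p were 0.0484 for Cd72 without Akkermansia 2 and 0.0437 for Ms4a1 without PBS 3, so these 2 calls lie nearest to the threshold. The log2 fold changes ranged from 0.435 to 0.642 for Cd72 and from 1.32 to 1.83 for Fcer2a. The further pathway genes numbered 14 to 25 higher and 2 to 5 lower when 1 library was left out, and 19 higher with limma on log2(FPKM + 1) or log2(FPKM + 0.1). Over all tested genes 519 to 1287 were higher and 623 to 1413 lower when 1 library was left out, against 1108 and 1253 with all 6. Both counts moved by over 1.5 times without Akkermansia 1 (647 and 755), Akkermansia 2 (519 and 623), Akkermansia 3 (535 and 638) or PBS 1 (679 and 794), fits with fewer samples. For the level of the 9 genes relative to T cell genes, the ratio of group means, Akkermansia over PBS, was 1.95 with Cd3e alone. It was 2.04 to 2.36 without 1 library. No share of a gene in the summed FPKM changed its direction in any alternative, but with counts in place of FPKM, which weights longer genes more, the difference was 3.83 percentage points for Cr2 (1.52 with FPKM), 3.2 for Ms4a1 (1.67), 1.41 for Cd79b (3.4), -1.34 for Cd22 (-0.567), -1.4 for Blnk (-0.645) and -1.16 for Cd79a (-1.82).

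Libraries with the same number correlated at 0.085, 0.077 and 0.03 in their deviations from the group means, each library best with its own number. These values are small, the labels do not state that equal numbers mark a pair, and pairing was not tested. With a replicate block 9 of the 9 genes, 24 further pathway genes and 1205 genes over the whole table were higher, and 3 and 1333 of the last 2 sets were lower. Counts of 85 to 211 for Btk limit the precision of its level, and 3 libraries per group limit every permutation test to a p of 0.1.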

Other observations

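Genes of B cell subsets did not move as whole lists. In the follicular list 3 of 6 genes rose, Fcer2a, Fcmr and Ighd, which encodes the IgD heavy chain (log2 fold change 1.04 ± 0.18, SE, edgeR adjusted p = 0.00773), while Ccr7, a homing receptor that T cells also express, had a value of 0.02. In the marginal zone list 4 of 8 rose. Besides Cr2 these were S1pr3, a sphingosine 1-phosphate receptor, at 3.39 ± 0.632 CPM with Akkermansia, against 0.854 ± 0.102 CPM with PBS (SD, n = 3, edgeR adjusted p = 0.00182), Dtx1, a Notch target, by 0.61 ± 0.08, and Cd9 by 0.38 ± 0.09. Dtx1 had 431 CPM with Akkermansia and 283 CPM with PBS, far above the 60.7 and 19.4 CPM of Cr2. Which cells its RNA came from was not tested. Cd1d1, also on that list, had 45.2 CPM with Akkermansia and 46.9 CPM with PBS. Among transitional B cell genes 1 of 5 rose (Cd24a) and among B-1 cell genes 2 of 6 (Cd5 and Spn, both also T cell genes); none of these fell.

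Immunoglobulin and precursor genes were less uniform than the 9 genes. Ighm, the IgM heavy chain, had 785 ± 32.4 CPM with Akkermansia, against 660.3 ± 22.0 CPM with PBS (SD, n = 3), a log2 fold change of 0.25 ± 0.07 (edgeR adjusted p = 0.0267) against 1.12 for Cd79a. Jchain, which joins secreted IgM and IgA, did not pass (0.94 ± 0.33, edgeR adjusted p = 0.146), and of 6 tested plasma cell genes none rose and 2 fell, Xbp1 and Prdm1, which T cells also express. Of the B cell precursor genes, both that were tested passed: Dntt, the terminal transferase, rose by 0.89 ± 0.26 (log2, SE, edgeR adjusted p = 0.0343), and Il7r, which T cells also express, fell to 496 ± 61.6 CPM with Akkermansia, against 717 ± 111 CPM with PBS (SD, n = 3, edgeR adjusted p = 0.0161). Among those not tested, Rag2 was at 0 in all 6 libraries, Igll1 had at most 1 count in a library and Vpreb1 had 6, 11 and 16 counts with Akkermansia, against 4, 2 and 0 with PBS.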
